A study of Mus musculus with 2 samples.

Results

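Egr and Nr4a immediate early genes are transcription factor genes that cells switch on within minutes of a stimulus, without new protein synthesis. The 10 genes described here are Egr1, Egr2, Egr3, Egr4, Nr4a1, Nr4a2 and Nr4a3, with the further early genes Arc, Npas4 and Ier2. They were chosen by name, and all 10 were found among the 23176 genes of the deposited table. Of the 10, 8 had a test between the lines and 2, Egr4 and Npas4, had none.

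The study compared a pair of mouse cell lines of the strain background 129SvEv/CD1, derived from striatum at embryonic day 14. STHdhQ7 has the genotype HdhQ7/Q7, and STHdhQ111 has the genotype HdhQ111/Q111, so that both copies of the huntingtin gene carry an expanded CAG repeat. Both lines were used at fewer than 15 passages, were grown at 33 °C, and were held at 39 °C for 2 days before use, which the submitters did to halt division. Each title names replicates, 3 per line, and the table gives 1 value per line combined over them, so no value of a single replicate could be shown. Levels are in FPKM, fragments normalised for transcript length and library size, which can be compared between genes, and the depth of the libraries is unknown. Each genotype is represented by 1 line, so genotype and the history of a line cannot be told apart, and neither can fewer expressing cells and less RNA per cell.

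EGR proteins bind GC-rich sites with zinc fingers and pass brief signals on to slower target genes. NR4A proteins are orphan nuclear receptors, whose activity is set mainly by how much of them is made. In neurons of the striatum both families are known to respond to dopamine, glutamate and neurotrophins, through ERK acting on SRF and its partners and through cAMP and calcium acting on CREB.

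Markers of the labelled tissue were mostly near the bottom of the scale. Of 14 striatal and neuronal markers in the table, 12 were under 1 FPKM in both lines, and Drd1a was at 0 in both. The 2 tested ones had higher values in STHdhQ111, and neither was called. Penk was listed at 2.85 and 6.49 FPKM and Tubb3 at 2.42 and 3.62 FPKM. Of these, 1 was higher and 0 lower at an unadjusted p under 0.05 in the authors' deposited table. Of the 4 tested neural progenitor markers 3 were called lower in STHdhQ111 and none higher. Nes, the gene of the intermediate filament nestin, fell from 35.99 to 0.999 FPKM. Sox2, a stem cell factor gene, fell from 72.0 to 0.561 FPKM, and Pax6, a patterning factor gene, from 14.9 to 0.0213 FPKM. The list summed to 3426 FPKM in STHdhQ7 and 2484 FPKM in STHdhQ111, nearly all of it from Vim, which was not called and was listed at 3303 and 2483 FPKM. Hes5 was at 0 in both lines. Of the 7 tested markers of fibroblasts and mural cells, 3 were called higher and none lower, and the list summed to 999.5 and 2613 FPKM. Of all tested genes, 7.17% were called lower and 6.35% higher. The collagen genes Col1a1 and Col1a2 rose from 451.9 to 1487 FPKM and from 11.5 to 532.6 FPKM, and the receptor gene Pdgfra rose from 3.34 to 9.28 FPKM. At an unadjusted p under 0.05 in the authors' deposited table, likewise 0 tested progenitor markers were higher and 0 tested fibroblast and mural markers lower. By value, Acta2 was the only tested fibroblast and mural marker lower in STHdhQ111, at 341.6 and 311.0 FPKM, and it was not called. The 3 markers of that list without a test were under 1 FPKM in both lines. Thy1 was at 0.0989 FPKM in STHdhQ7 and at 0 in STHdhQ111, with an unadjusted p of 0.0362 in the authors' deposited table. Lum had 0.0773 and 0.501 FPKM, with such a p of 0.0226, and Rgs5 had 0 and 0.0847 FPKM, with 0.133. Among microglial and leukocyte markers 6 of 7 were under 1 FPKM in both lines, and the exception, Cd68, was called higher. Among 5 endothelial markers 4 were under 1 FPKM in both lines, and Tek, the only tested one, was called higher, a call that was absent under 4 of the 6 alternatives. Among 10 astrocyte and oligodendrocyte markers 8 were under 1 FPKM in both lines, and neither of the 2 tested was called, with 0 at an unadjusted p under 0.05 in the authors' deposited table. The part of these differences in the results below was not tested. Htt, the gene altered by design, was listed at 3.91 FPKM in STHdhQ7 and at 2.83 FPKM in STHdhQ111 and was not called.

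The early genes mostly had lower values in STHdhQ111, but only Egr2 passed the test. A gene is referred to as called when its q-value, the Benjamini-Hochberg adjusted p over all tested genes in the authors' deposited table, was 0.05 or less. Of the 8 tested members, 1 was called lower, none was called higher and 7 were not called. Over the whole table, 7.17% of 12740 tested genes were called lower, 6.35% were called higher and 13.5% were called in either direction. The members' share of 12.5% is near that background. At an unadjusted p under 0.05 in the authors' deposited table, 4 members were lower and 0 higher, against 21.2% of tested genes in either direction. All 6 tested Egr and Nr4a genes had a lower value in STHdhQ111, as did Ier2, and Arc had a higher one. Among all tested genes 54.5% had a lower value in STHdhQ111. The median log2 ratio of (FPKM + 0.5) was -0.81 over the 8 tested members and -0.05 over all tested genes. The members were taken up with earlier results of these data known, so this direction is a description.

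**Figure D1:**
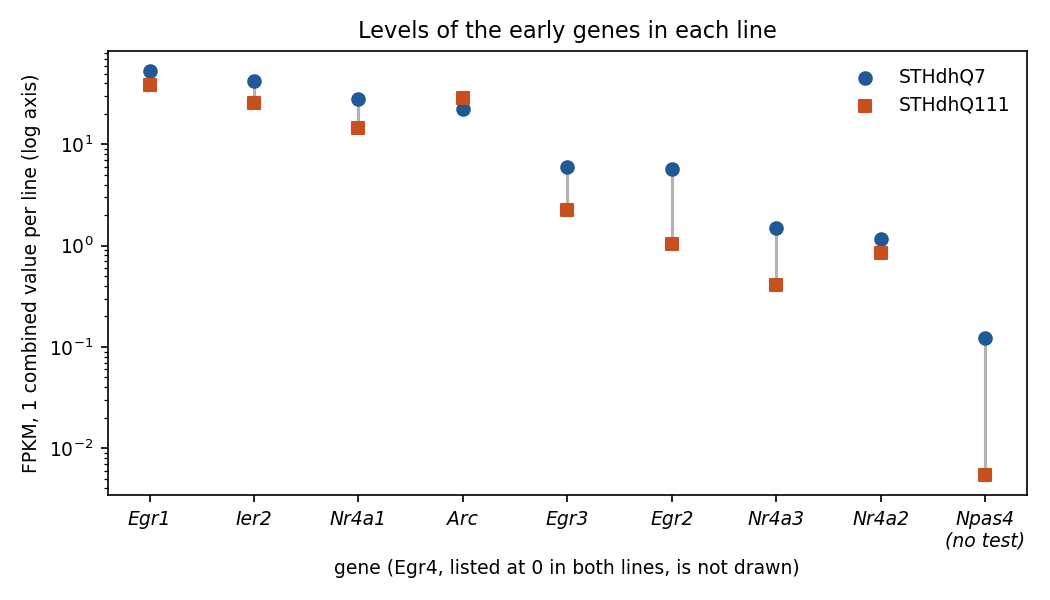
FPKM (log axis) of each gene in STHdhQ7 (circles) and STHdhQ111 (squares), 1 combined value per line, with a line joining the values of a gene. The STHdhQ111 value lies below the STHdhQ7 value for every gene drawn except Arc, and the gap is wide for Egr2 and Nr4a3. The log axis also draws a wide gap for the untested Npas4, at 0.122 and 0.00541 FPKM. Its log2 ratio of (FPKM + 0.5) is -0.30.

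The levels spanned a wide range. In STHdhQ7 the order ran from Egr1, Ier2, Nr4a1 and Arc through Egr3, Egr2, Nr4a3 and Nr4a2 to Npas4 and Egr4. In STHdhQ111 Arc stood second, ahead of Ier2 and Nr4a1, and Nr4a2 stood ahead of Nr4a3. Egr1, the most abundant, exceeded 88.6% of tested genes in STHdhQ7 and 83.2% in STHdhQ111. Nr4a3 exceeded 15.0% of tested genes in STHdhQ7 and 4.75% in STHdhQ111. With 1 combined value per line, whether neighbours in these orders differ beyond replicate spread could not be judged.

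Egr2, also known as Krox20, is a factor best known for hindbrain patterning and for myelination by Schwann cells. It was listed at 5.72 FPKM in STHdhQ7 and at 1.04 FPKM in STHdhQ111. The STHdhQ111 value was the lower, by 5.52-fold. The authors' deposited table gives a log2 fold change of -2.46 for Egr2 with a q-value of 0.000956. With a pseudocount of 1 FPKM the log2 value was -1.72. The standard error that its test statistic implies was 0.61, and the 95% interval from that error ran from 2.40-fold to 12.7-fold lower. This interval and those given below are not adjusted for the number of genes tested. Of all tested genes, 3.91% had a lower log2 fold change and 6.11% had a smaller p in the authors' deposited table. Egr2 lies on chromosome 10 at 67000617 to 67004936 (mm9). Its promoter is shown because it was the member that passed the test. The window runs from 250 bases before to 50 bases after a RefSeq start site, chr10:67537619-67537918 on the plus strand of GRCm38.p6. RefSeq gives 5 such windows for Egr2. The one whose start lies 4320 bases from the gene's end was taken, which is also the length of the table's locus. Capitals mark matches to the CRE core TGACG, part of the CREB site, on either strand, and to the CArG box, the site of SRF:
Egr2: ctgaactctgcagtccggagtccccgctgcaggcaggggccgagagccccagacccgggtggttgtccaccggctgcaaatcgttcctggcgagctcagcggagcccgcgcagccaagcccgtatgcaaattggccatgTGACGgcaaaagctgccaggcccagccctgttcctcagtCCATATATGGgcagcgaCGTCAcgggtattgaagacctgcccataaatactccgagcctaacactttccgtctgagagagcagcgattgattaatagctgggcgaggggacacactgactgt
The CArG box began 72 bases before the start site and lay between the CRE cores, the nearer of which began 55 bases before the start. The CArG box was found in 1.63% of the 32851 promoter windows of the same length.

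In levels, the genes most like Egr2 over the 2 lines were Pbk, Apln and C1ql1, by distance between pairs of log2(FPKM + 0.5) values. Pbk was listed at 5.70 and 1.06 FPKM, with a distance of 0.02. Apln was listed at 5.86 and 1.01 FPKM, with a distance of 0.04, and C1ql1 at 6.01 and 1.03 FPKM, with a distance of 0.07. All 3 were called, but they were picked for levels like those of Egr2, which gives them a like fold, so their calls add no support. This likeness rests on 2 values per gene.

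Egr1, the most widely induced EGR factor, had the highest level of all members in both lines. It was listed at 53.1 FPKM in STHdhQ7 and at 38.2 FPKM in STHdhQ111, which was the lower by 1.39-fold. The authors' deposited table gives a log2 fold change of -0.48 for Egr1 with a q-value of 0.660, so it was not called. The implied 95% interval ran from -1.26 to 0.31 on the log2 scale, which includes no change as well as a fall of 2.40-fold. Egr1 lies on chromosome 18 at 35020861 to 35024610 (mm9). The share of Egr1 in the summed EGR FPKM was 82.0% in STHdhQ7 and 92.1% in STHdhQ111.

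Egr3 is induced after Egr1 in many cells and is known from muscle spindles and T cells. It was listed at 5.96 FPKM in STHdhQ7 and at 2.25 FPKM in STHdhQ111, a 2.64-fold lower value in STHdhQ111. The authors' deposited table gives a log2 fold change of -1.40 for Egr3 with a q-value of 0.0917, and the implied standard error was 0.57. With that error a change of 2.94-fold would have been the smallest to be called, so the change of Egr3 was just short of it. It lies on chromosome 14 at 70477252 to 70479964 (mm9). Egr4, the member of the family most tied to neurons and germ cells, was listed at 0 in both lines and had no test. Its locus is chromosome 6, 85461116 to 85463536 (mm9). Of the summed EGR FPKM, Egr3 made up 9.21% in STHdhQ7 and 5.44% in STHdhQ111, and Egr2 8.83% and 2.50%.

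The NR4A receptors were all lower in STHdhQ111 by value, and none was called. Nr4a1, also known as Nur77, acts in T cell death, steroid-making cells and metabolism. It was listed at 28.0 FPKM in STHdhQ7 and at 14.5 FPKM in STHdhQ111, which was the lower by 1.94-fold. The authors' deposited table gives a log2 fold change of -0.95 for Nr4a1 with a q-value of 0.151. The implied 95% interval of Nr4a1 ran from 1.08-fold to 3.49-fold lower. Like those of Egr3 and Nr4a3, this unadjusted interval left out no change, though none of these genes was called. Nr4a3, also known as Nor1, was listed at 1.49 and 0.404 FPKM, lower by 3.69-fold in STHdhQ111. In the authors' deposited table its log2 fold change was -1.88, with a q-value of 0.115. With a pseudocount of 1 FPKM the log2 value was -0.83. At its implied standard error of 0.80 only a change of 4.52-fold or more would have been called. Nr4a2, also known as Nurr1 and needed for midbrain dopamine neurons, was listed at 1.18 and 0.855 FPKM. In the authors' deposited table its log2 fold change was -0.46, with a q-value of 0.911. The implied interval for Nr4a2, from 0.25-fold to 2.11-fold of the STHdhQ7 level, includes no change. Nr4a1 made up 91.3% of the summed NR4A FPKM in STHdhQ7 and 92.0% in STHdhQ111. On mm9, Nr4a1 lies on chromosome 15 at 101097277 to 101105225, Nr4a2 on chromosome 2 at 56959637 to 56976414 and Nr4a3 on chromosome 4 at 48064120 to 48096224.

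**Figure D2:**
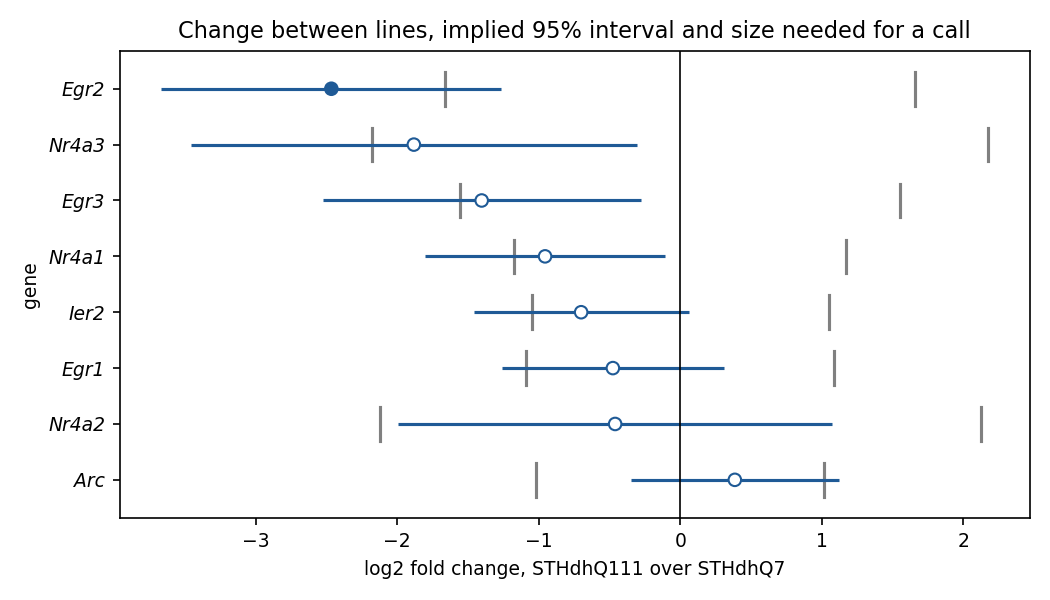
Log2 fold change of each tested gene in the authors' deposited table, STHdhQ111 over STHdhQ7 (point, filled where called), with the 95% interval implied by its test statistic (horizontal line) and the smallest change in either direction that would have been called at that error (grey ticks). The Egr2 point at -2.46 lies beyond its tick. Every other point lies between its ticks, with Egr3 at -1.40, Nr4a1 at -0.95 and Nr4a3 at -1.88 the nearest to one. The intervals are not adjusted for the number of genes tested.

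The promoters of Nr4a1 and Nr4a3 are shown because these genes had the lowest q-values after Egr2 and Egr3. The windows are chr15:101266596-101266895 and chr4:48045055-48045354, both on the plus strand of GRCm38.p6, from RefSeq. The start site in the Nr4a1 window lies 7950 bases from the gene's end, close to the locus of 7949 bases in the table. For Nr4a3 the distances were 41143 and 32105 bases, so its window may belong to a start site other than that of the table's locus. Capitals mark the CRE core on either strand and, in Nr4a1, the EGR site GCGNGGGCG on the minus strand:
Nr4a1: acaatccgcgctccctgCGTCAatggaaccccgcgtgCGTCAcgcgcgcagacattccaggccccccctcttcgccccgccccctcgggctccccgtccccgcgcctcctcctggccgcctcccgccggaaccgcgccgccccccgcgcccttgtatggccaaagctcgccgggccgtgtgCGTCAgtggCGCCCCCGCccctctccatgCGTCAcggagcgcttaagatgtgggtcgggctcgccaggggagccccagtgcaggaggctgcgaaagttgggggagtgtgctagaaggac
Nr4a3: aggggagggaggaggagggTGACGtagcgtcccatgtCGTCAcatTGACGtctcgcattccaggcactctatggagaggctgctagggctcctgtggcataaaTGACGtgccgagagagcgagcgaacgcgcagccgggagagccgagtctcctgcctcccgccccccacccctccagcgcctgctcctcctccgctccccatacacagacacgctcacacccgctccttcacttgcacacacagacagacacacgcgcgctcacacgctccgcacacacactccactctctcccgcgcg
Each of these windows held 4 CRE cores. The EGR site in Nr4a1 began 60 bases before the start site.

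A promoter window was given for 6 of the 10 members, Egr2, Egr4, Nr4a1, Nr4a2, Nr4a3 and Npas4. All 6 held at least 1 CRE core, against 20.8% of all promoter windows. The cores numbered 4 each in the Nr4a genes and 2 each in Egr2, Egr4 and Npas4. The EGR site was found in Nr4a1 and Nr4a2 and in 5.55% of all windows, and the CArG box in Egr2 alone of the 6. The full CRE, TGACGTCA, which contains the core on both strands, was in none of the 6 windows and in 1.79% of all. The NR4A monomer site AAAGGTCA was in none of the 6 and in 1.51% of all. These are matches of letters on both strands in a short window, in called, uncalled and untested members alike.

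**Figure D3:**
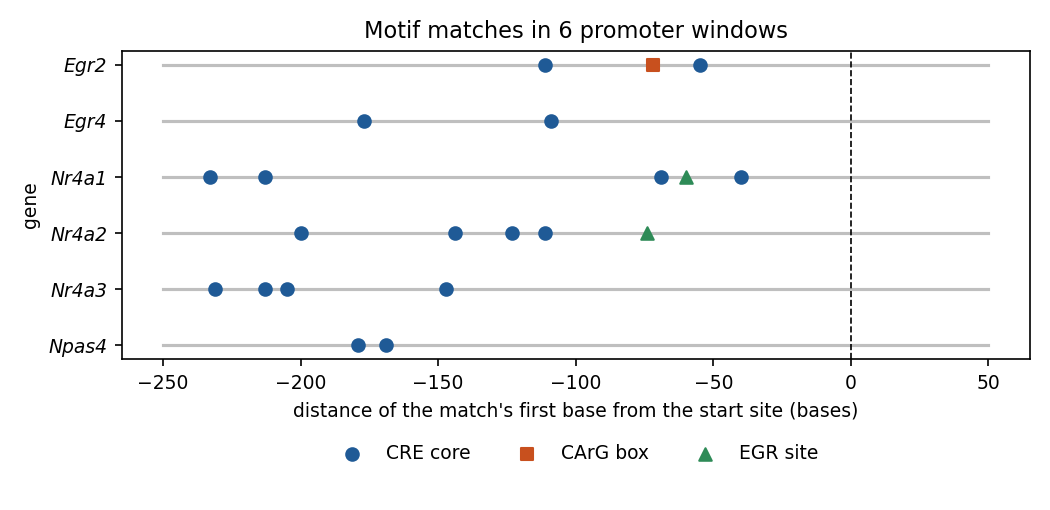
Position of each motif match (first base, in bases from the start site at 0) in the promoter windows of the 6 members that have one, each window drawn as a grey line from 250 bases before to 50 bases after the start. CRE cores (circles) occur in every window, the CArG box (square) in Egr2, and EGR sites (triangles) in Nr4a1 and Nr4a2.

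Arc was the only tested member with a higher value in STHdhQ111. It encodes a capsid-like protein that moves glutamate receptors off the synapse, and its mRNA is carried to dendrites. Arc was listed at 22.2 FPKM in STHdhQ7 and at 29.0 FPKM in STHdhQ111. The authors' deposited table gives a log2 fold change of 0.39 for Arc with a q-value of 0.738. The implied 95% interval ran from 0.78-fold to 2.18-fold of the STHdhQ7 level, and Arc had the smallest implied standard error of the members, 0.38. Arc lies on chromosome 15 at 74499513 to 74503000 (mm9). Its level exceeded that of 72.0% of tested genes in STHdhQ7 and 78.2% in STHdhQ111.

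Ier2 encodes a small nuclear protein induced by growth factors in most cell types. It was listed at 42.0 FPKM in STHdhQ7 and at 25.9 FPKM in STHdhQ111, lower by 1.62-fold in STHdhQ111. In the authors' deposited table its log2 fold change was -0.70, with a q-value of 0.304. The implied interval, -1.46 to 0.06 on the log2 scale, includes no change. Ier2 lies on chromosome 8 at 87185230 to 87186751 (mm9). Npas4, a factor that neurons induce on calcium entry, was listed at 0.122 FPKM in STHdhQ7 and at 0.00541 FPKM in STHdhQ111 and had no test, so no fold is given. Its locus is chromosome 19, 4984355 to 4989971 (mm9).

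Most of the members are compact genes. In GENCODE M21 (GRCm38), 6 of the 10, the EGR genes, Arc and Ier2, had 3 exons or fewer, against 13.1% of the 11060 tested genes with an annotated 3' UTR and a median of 9 exons. The Nr4a genes and Npas4 had 8 exons. The AU-rich word ATTTA, part of the elements that mark short-lived mRNAs, occurred at 5.49 per kilobase of 3' UTR in Nr4a1, above 94.9% of those genes. Its density in Egr3 was 2.64 and in Egr2 2.49 per kilobase, with a median of 1.24 over the tested genes. Arc, Ier2 and Egr4 had none. The longer word TATTTAT occurred in 2 members, Nr4a2 and Nr4a3, and in 28.8% of the tested genes. At least 99.6% of the 36-base words in each member's transcripts occurred in no other gene's transcripts.

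No member's locus overlapped another locus in the table. Taking the nearest genes on either side of each member gave 24 neighbours, of which 17 were tested and 2 were called, both lower in STHdhQ111. That is near the share over all tested genes, 13.5% called in either direction, with 7.17% called lower. Reep2, an endoplasmic reticulum shaping protein gene, ends 13.7 kb before Egr1. It was listed at 17.8 FPKM in STHdhQ7 and at 0.132 FPKM in STHdhQ111, with a log2 fold change of -7.07 and a q-value of 1.80e-09 in the authors' deposited table. Egr1 beside it was not called. Cacna1a, a calcium channel subunit gene, lies 21.1 kb before Ier2 and was listed at 6.44 and 1.28 FPKM, with a q-value of 2.50e-05 in the authors' deposited table. Ado, 2.32 kb after Egr2 and the closest neighbour of any member, had 11.4 and 10.9 FPKM and was not called. Nrbf2, on the other side of Egr2, had 16.6 and 18.7 FPKM and was also not called.

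Other immediate early genes were called in both directions at this threshold. Of 36 tested, 3 were called lower, 2 were called higher and 31 were not called. The share called, 13.9%, is near the 13.5% of all tested genes. The median log2 ratio was -0.02, where all tested genes had -0.05. Rgs2, a brake on G protein signalling, fell from 3.17 to 0.405 FPKM. Ctgf, a matricellular growth factor gene, fell from 237.0 to 44.2 FPKM, and the kinase gene Nuak1 fell from 39.99 to 10.4 FPKM. Klf2, a zinc finger factor known from vessels and lymphocytes, rose from 1.36 to 4.86 FPKM, and the bZIP repressor gene Nfil3 rose from 13.7 to 29.5 FPKM. With the Benjamini-Yekutieli adjustment, and with a minimum of 4-fold, neither of these higher calls was made, which left 0 higher with 3 and 2 lower. The abundant uncalled genes were Cyr61, with 204.9 and 268.6 FPKM, and Plk2, with 95.1 and 102.6 FPKM. None of the 9 tested AP-1 family genes was called, against 13.5% of all tested genes. At an unadjusted p under 0.05 in the authors' deposited table, 1 was lower in STHdhQ111 and 0 were higher. The median of the 9 was 0.31, with 7 higher by value and 2 lower. Among them Jund was listed at 132.4 and 164.3 FPKM and Junb at 109.6 and 148.3 FPKM.

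**Figure D4:**
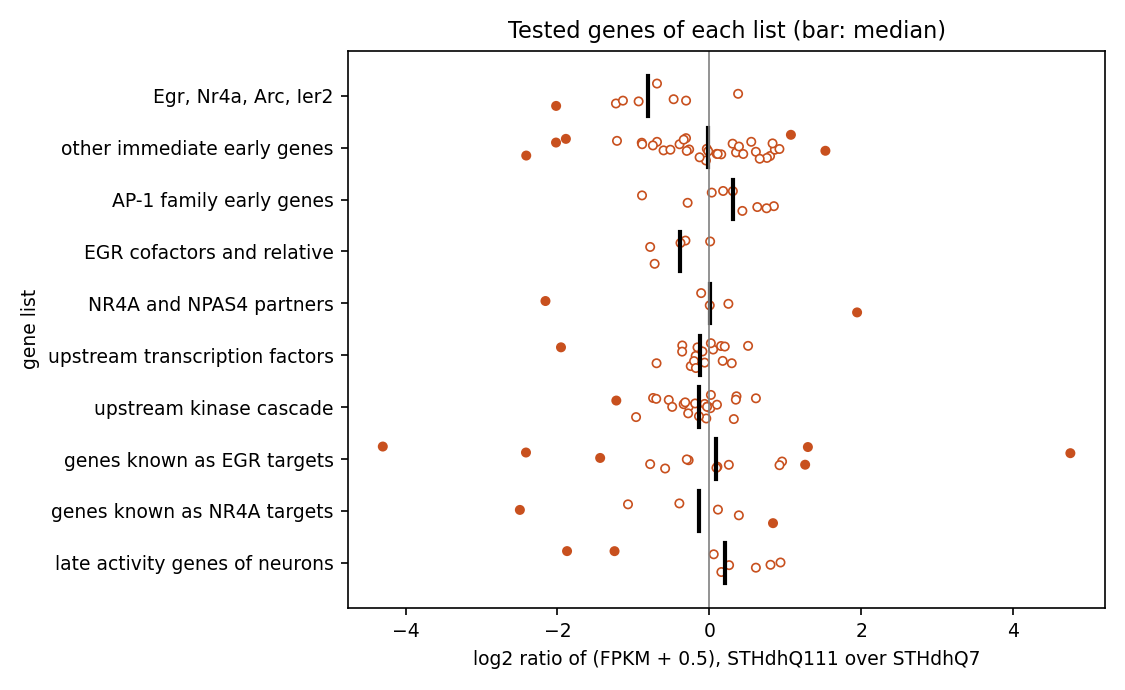
Log2 ratio of (FPKM + 0.5), STHdhQ111 over STHdhQ7, for the tested genes of each list (points, filled where called) with the list's median (black bar). The Egr, Nr4a, Arc and Ier2 row has its median at -0.81 and only Arc above 0, and the row of genes known as EGR targets spreads to both sides, from -4.30 to 4.75.

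Few genes listed for the cascade known to induce such early genes were called, 1 in each list. The shares were 5.56% of upstream transcription factors and 4.35% of kinases and adaptors, against 13.5% of all tested genes. Whether counts this small differ from that share was not tested. Of 18 tested upstream transcription factors (SRF, its ternary complex partners and coactivators, the CREB group and MEF2), 1 was called lower, none higher and 17 were not called, with a median log2 ratio of -0.12. The called gene was Mef2c, which encodes a calcium-responsive factor of muscle and neurons and fell from 1.56 to 0.0321 FPKM. Atf1, a relative of CREB, had 45.4 and 40.0 FPKM and was not called, and Elk3, a partner of SRF, at 43.4 and 26.6 FPKM and was not called. Of 23 tested kinases and adaptors from Grb2 to ERK, RSK, MSK, PKA and CaMK, 1 was called lower and none higher, with a median of -0.14. That gene was Rps6ka5, which encodes MSK1, a kinase that phosphorylates CREB and histone H3 at early genes. It fell from 5.09 to 1.89 FPKM. The Rps6ka5 call was absent at q of 0.01 or less, and the Mef2c call with a filter at 1 FPKM. Mapk3, the gene of ERK1, was listed at 121.6 and 72.6 FPKM and Map2k2 at 88.0 and 85.6 FPKM, and neither was called. At an unadjusted p under 0.05 in the authors' deposited table, 0 tested genes of either list were higher, and 1 upstream factor and 3 kinase genes were lower. Over all tested genes, 21.2% were at such a p in either direction. The values of both lists are RNA levels, and phosphorylation of the kinases was not measured.

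Among the partners of the factors 2 genes were called. None of the 5 tested EGR cofactors was called, and 0 were at an unadjusted p under 0.05 in the authors' deposited table. Nab2, the corepressor that EGR factors themselves induce, was listed at 107.0 and 62.1 FPKM, and the NuRD subunit gene Chd4 at 55.5 and 44.6 FPKM. Of the 5 tested dimer partners and corepressors of NR4A and NPAS4, Rxra was called higher and Arnt2 lower. That is 40% of a short list, against 13.5% of all tested genes. Rxra, a retinoid receptor that dimerizes with NR4A1 and NR4A2, rose from 18.5 to 72.6 FPKM, whereas its relative Rxrb had 29.1 and 34.7 FPKM and was not called. Arnt2, a bHLH-PAS partner of NPAS4, fell from 25.4 to 5.30 FPKM, and its relative Arnt was listed at 27.0 FPKM in both lines.

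Genes known as targets were called in both directions. The shares called in these short lists were 40% of EGR targets, 33.3% of NR4A targets and 25% of late activity genes. Over all tested genes the share was 13.5%. Of 15 tested genes known as EGR targets, 3 were called higher, 3 lower and 9 were not called, with a median log2 ratio of 0.09. Pdgfb, a platelet-derived growth factor chain gene, fell from 13.4 to 0.206 FPKM. The adhesion receptor gene Icam1 fell from 4.14 to 0.371 FPKM, and Cd44, another adhesion receptor gene, from 94.5 to 34.6 FPKM. Ptges, the prostaglandin E synthase gene, rose from 1.38 to 50.3 FPKM, and the protease genes Mmp14 and Plau rose from 91.6 to 225.9 FPKM and, for Plau, from 15.97 FPKM to 38.96 FPKM. Of 6 tested genes known as NR4A targets, Eno3, a muscle enolase gene, was called lower, from 18.01 to 2.78 FPKM. Ret, a receptor for GDNF family ligands, was called higher, from 0.166 to 0.690 FPKM, and Th, the dopamine synthesis gene, had no test. Of 8 tested late activity genes of neurons, Nptx1 fell from 3.50 to 0.591 FPKM and Nrn1 from 41.2 to 17.0 FPKM, none was called higher (2 at an unadjusted p under 0.05 in the authors' deposited table) and 6 were not called. The calls of Mmp14, Plau, Ret and Nrn1 were absent at q of 0.01 or less and, like that of Cd44, with the Benjamini-Yekutieli adjustment. The most abundant uncalled EGR targets were Fn1, with 322.1 and 625.8 FPKM, and Nab2, with 107.0 and 62.1 FPKM. Among NR4A targets they were Nrp1, with 23.3 and 30.6 FPKM, and Aldh1a1, with 1.08 and 0.252 FPKM. Among late activity genes they were Plat, with 103.8 and 115.9 FPKM, and Inhba, with 40.1 and 41.7 FPKM. Many genes of these lists are also controlled by other factors, and whether any difference in them follows from the members was not tested.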

How the data were processed

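Polyadenylated RNA was sequenced from random-primed cDNA, per the labels' protocols. Strand marking is not described there. The submitters' processing notes name TopHat 1.4.0, Bowtie 0.12.7, Cufflinks 2.0.2, Cuffdiff and the mm9 build. For options and annotation, and for the version of Cuffdiff: not given in the sources used here. Per the file headers, the authors deposited FPKM for each line with a log2 fold change, a test statistic (a score whose sign is opposite to the fold change), a p-value and a q-value. The fold change is STHdhQ111 over STHdhQ7.

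No test was run beyond the deposited one, since each line has 1 combined value. The labels do not say that replicates were separate cultures, and the deposited p-values may then reflect technical variation alone. The p-value equalled the normal tail of the statistic to within 2.7e-06, so the fold change over the statistic gave the implied standard error. Locus starts were read as 0-based and raised by 1, because the difference of end and start matched RefSeq's gene length for 7132 of 20606 matched symbols. FPKM sums were 426021 and 427714.

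The 16 lists, that of the members included, were chosen with earlier results of these data known. The rule named all 10 members, from each other list up to 6 called genes and the 2 most abundant uncalled ones, and 3 genes of like level for each called member. Hes5, Drd1a, Thy1, Lum, Rgs5, Th, Htt, the neighbours and the promoters shown were chosen after values were seen. Promoters are RefSeq (GRCm38.p6). Words of 36 bases were searched in GENCODE M21 transcripts. Alternatives covered the threshold, adjustment, filter, scaling, fold minimum and pseudocount. Only the recentring, the Benjamini-Hochberg adjustment and the calls from it were tested on simulated log2 fold changes. Python 3.11.15, numpy 2.4.6 and pandas 2.3.3 were used.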

Additional observations from a re-analysis of the deposited data

How the results depend on the processing

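Egr2 was called lower under all 7 settings run, and no member was called higher under any of them. With a threshold of q of 0.1 or less, 2 members were called lower, Egr2 and Egr3. Egr1, Nr4a1, Nr4a2, Nr4a3, Arc and Ier2 were called under none of the 7. The count of called genes over the whole table was 1079 with the Benjamini-Yekutieli adjustment and 1048 with a minimum of 4-fold, against 1723. Recentring by the median of expressed genes (-0.05) gave 1707 calls. The 24 alternatives for the fold changes of single members kept their direction. Of these only the 8 that recentred could alter a call, and none did. With a pseudocount of 1 the log2 value went from -1.88 to -0.83 for Nr4a3, from -2.46 to -1.72 for Egr2 and from -0.46 to -0.23 for Nr4a2. The median log2 ratio of the tested members ranged from -0.83 to -0.69 over pseudocounts of 0.1 and 1, no pseudocount, recentring and a filter at 1 FPKM, and was -0.58 with the 2 untested members included. In 4 of the other lists no gene was called under any setting. For the rest, 44 of 66 alternatives stayed within 1.5 times the count of calls. Of the 27 called genes of these lists, 12 were called under all 6 alternatives and 15 were not. Nfil3, Rps6ka5, Plau, Mmp14, Nrn1 and Tek lost their call at q of 0.01 or less, with the Benjamini-Yekutieli adjustment and with a minimum of 4-fold. Ret lost it under the first pair of these, and Klf2, Cd44 and Pdgfra under the last pair. Nuak1, Rxra, Col1a1 and Cd68 lost it with a minimum of 4-fold alone. The filter at 1 FPKM left out Mef2c, Ret and Tek. No paired analysis was possible because each line has 1 value combined over its replicates, and for the same reason leaving out a replicate was not run. Depth is unknown, so low values such as those of Nr4a2, Nr4a3 and Npas4 carry wide or unknown errors.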
